A study of Mus musculus with 54 samples.

Results

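Polrmt encodes the RNA polymerase of mitochondria, and the peaks described here are those that the ChIP-seq lists of 42 KRAB zinc finger proteins (KZFPs) place in this gene. The members were chosen by the position of the peaks themselves: every peak that overlapped GRCm39 chr10:79574478-79576196 by at least 1 bp was taken. This gave 13 peaks of 25012 in all, 1 in each of 13 lists. The peak positions therefore selected both the interval and its members, so the presence of the peak in these lists is a description and carries no test.

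Polrmt transcribes the circular mitochondrial genome from its promoters with the help of the DNA-binding factor Tfam and the initiation factor Tfb2m, and its short transcripts also prime the replication of mitochondrial DNA. The gene itself lies in the nucleus. KZFPs bind DNA through a tandem array of zinc fingers and recruit the corepressor KAP1/TRIM28 through their KRAB domain, and most of those that have been studied bind transposable elements.

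The study expressed KZFPs of the cluster at the end of mouse Chr4, 1 per culture, in F9 embryonal carcinoma cells. Each carried a C-terminal 3x-HA tag on a Sleeping Beauty transposon vector with puromycin resistance and was precipitated with an anti-HA antibody. Every KZFP had 1 library, with no replicate, in 1 of 5 batches, and each batch had its own mixed input. Of the 54 samples in the labels, 12 were not analysed here: 5 mixed inputs, 4 cultures with empty vector (in batches 1, 2 and 4) and 3 libraries of HGTC8 embryonic stem cells. All groups share the F9 background, the selection and the vector. The KZFPs were over-expressed from codon-optimised constructs, so a peak gives anti-HA enrichment over input at that level of protein. The identity of the cell line was not checked, since peak lists hold no expression. Libraries held 19.6 to 90.4 M reads (1 M is 1000000 reads), and the lists held 21 to 6183 peaks.

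The interval is known as the Polrmt promoter from its working name, and the annotation went against that name. Polrmt (ENSMUSG00000020329.14) is on the minus strand at chr10:79571957-79582420, so its start is at the high end, 6224 to 7942 bp upstream of the interval. None of the 13 peaks reached a base within 1000 bp of the gene start. The interval spans coding exons 9, 10 and 11 of the canonical transcript Polrmt-201, which has 21 exons. All 13 summits lay in coding exon 10 (chr10:79574977-79575765, 789 bp), 7065 to 7218 bp downstream of the gene start. The annotation does place 2 transcript starts in the interval, those of Polrmt-209 and Polrmt-211 at 79575208 and 79575209, but it marks both models as incomplete at their 5′ end. A further model, the retained-intron transcript Polrmt-212, starts at 79574465, just outside the interval. The site is therefore called the exon 10 site here.

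The sequence under the summits is shown because it is the stretch on which the lists converged. It is the 300 bases of GRCm39 chr10:79575083-79575382 about the median summit (79575233), 5′ to 3′ on the minus strand, which is the coding strand of Polrmt. The capitals mark the longest run of letters that it shares with the 300-base windows at the summits of the Zfp777 and Inpp5f regions, the pair of regions whose lists were most like its own.
Polrmt: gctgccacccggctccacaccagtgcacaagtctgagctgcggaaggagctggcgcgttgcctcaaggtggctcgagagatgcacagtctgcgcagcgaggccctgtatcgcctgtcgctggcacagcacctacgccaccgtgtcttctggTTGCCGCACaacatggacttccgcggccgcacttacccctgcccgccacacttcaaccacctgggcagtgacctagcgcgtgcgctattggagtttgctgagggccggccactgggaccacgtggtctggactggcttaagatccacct

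The window had a GC content of 63.7% and 21 CpG dinucleotides. Among the summit windows of all 21113 merged regions, 14.5% had at least this GC content and 14.8% at least this many CpGs. The promoter at the gene start (250 bases before to 50 after it), where no list had a peak, also held 21 CpGs in 300 bases, at a GC content of 51%. Coding exon 10 as a whole had a GC content of 62.5%, so the window was close to the exon around it. The interval matched the genome at 1 place only, itself (blastn, e-value up to 0.001), so no second copy of this sequence was found in GRCm39.

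The 13 peaks stood on nearly the same bases. Summits ran from 79575202 to 79575355, and 12 of the 13 fell within 62 bp of each other (79575202 to 79575264). Rex2 was the exception, with its summit at 79575355, 122 bp from the median. A stretch of 272 bp (chr10:79575164-79575435) was common to all 13 peaks and held all 13 summits. It is exactly the span of the narrowest peak, that of Zfp600.

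**Figure D1:**
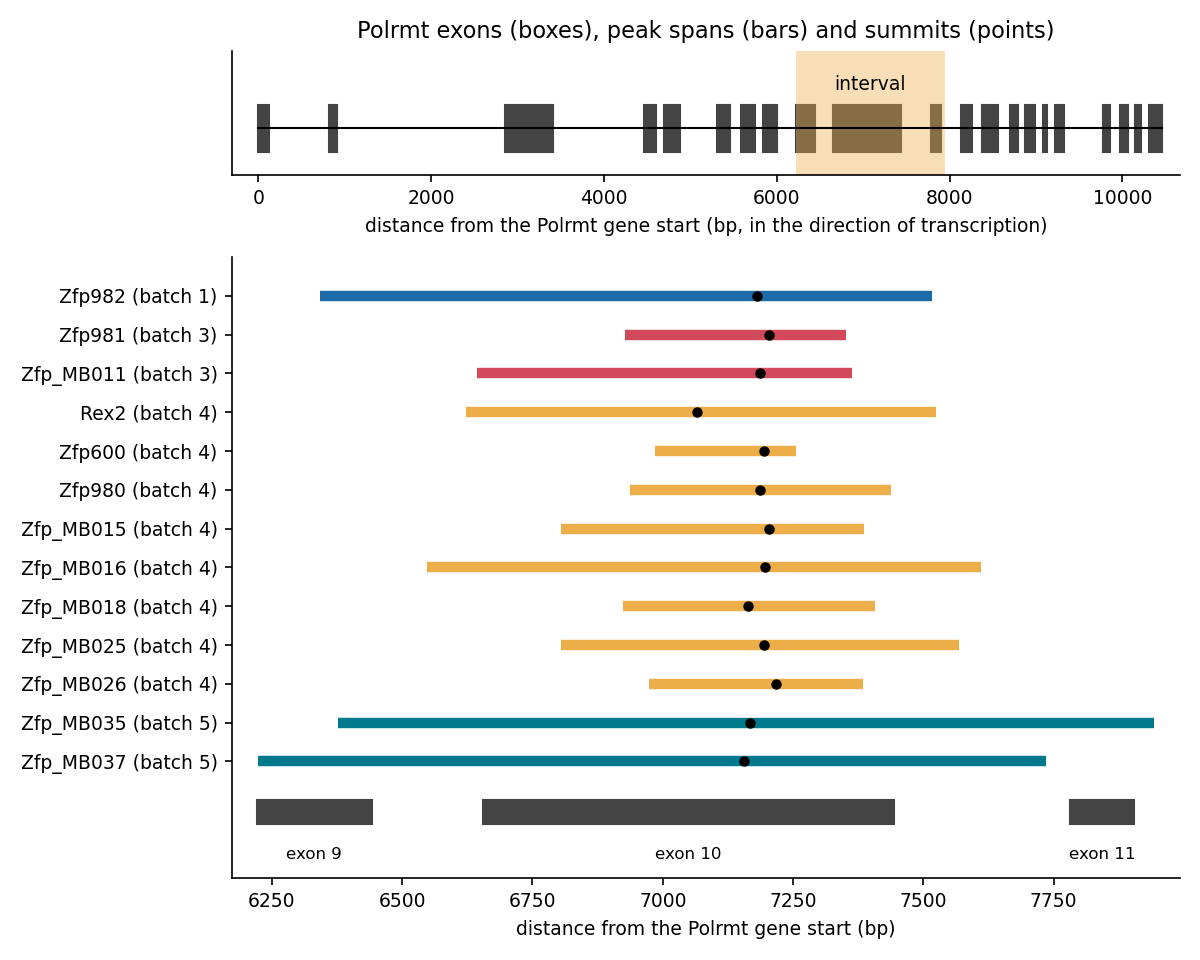
The upper panel draws the 21 exons of Polrmt-201 against the distance from the gene start in bp, with the interval shaded, and the lower panel draws the 13 peaks as bars (colour by batch) with their summits as points. The interval lies in the second part of the gene, and all 13 summits lie over exon 10. Of these, 12 line up while that of Rex2 sits nearer to the gene start.

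Widths differed more than summits. They ran from 272 bp (Zfp600) to 1567 bp (Zfp_MB035), with a median of 721 bp, and 9 of 13 peaks were wider than the median peak of their own list. Only 5 of the 13 covered exon 10 from end to end. Zfp_MB035 (1567 bp) and Zfp_MB037 (1512 bp), both of batch 5, had the broadest peaks, followed by Zfp982 (1175 bp) and Zfp_MB016 (1064 bp). The peaks of Zfp_MB035 and Zfp_MB037 set the ends of the interval, at 79574478 and 79576196. The nearest further peak of any list lay 11972 bp away.

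The fold enrichment over input, the ratio that the peak caller MACS2 gives at the summit, ran from 6.62 to 23.6 with a median of 15.9. Since every batch had another input, values are set side by side and not ranked across batches. In batch 4 the folds were 23.6 for Zfp_MB016, 17.3 for Zfp_MB025, 16.8 for Zfp_MB015, 15.9 for Zfp_MB018, 11.9 for Zfp980, 11.1 for Zfp_MB026, 10.7 for Rex2 and 6.62 for Zfp600. This batch alone spanned the whole range of the series. In batch 5 they were 21.8 for Zfp_MB035 and 17.5 for Zfp_MB037. The folds of batch 3 were 9.002 for Zfp_MB011 and 6.68 for Zfp981, and Zfp982, the KZFP of batch 1 with the peak, had 19.5. With 1 library per KZFP, none of these differences has a replicate check.

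Confidence in the peak, as −log10 of the MACS2 q-value, was 136.5 for Zfp982, 97.8 for Zfp_MB035 and 87.7 for Zfp_MB016. It was 60.7 for Zfp_MB037, 50.8 for Zfp_MB025, 45.8 for Zfp_MB015, 44.0 for Zfp_MB018 and 40.4 for Zfp_MB011. Zfp_MB026 (28.8), Zfp980 (28.3), Rex2 (17.5) and Zfp981 (17.4) were lower, and Zfp600 (7.099) was the lowest. The highest value belonged to the deepest library (90.4 M reads), while Rex2 and Zfp600 had the shallowest of the 13 (19.6 and 24.0 M reads). The part of depth in these values was not tested.

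Rank tells how prominent the site was within its own list. The peak was rank 2 of 114 by fold for Zfp980 (fold 11.9, list median 6.04), rank 3 of 24 for Zfp_MB015 and rank 3 of 54 for Zfp_MB037. It was rank 10 of 56 for Zfp_MB025, 20 of 296 for Zfp_MB011, 35 of 335 for Zfp981 and 20 of 51 for Zfp600. In these lists the exon 10 site was thus in the upper part by fold, above the list median in each. By −log10 q this held for all of them but Zfp600, at rank 32 of 51.

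The other 6 lists had it at ranks from 48 to 3634. Zfp_MB016 (fold 23.6) had it at rank 1827 of 6183, Zfp982 at rank 1743 of 4746 and Zfp_MB035 at rank 105 of 459. For Zfp_MB018 it was rank 48 of 171. By fold it fell below the list median only for Zfp_MB026, at rank 3634 of 4106, and for Rex2, at rank 115 of 128. By −log10 q these were also low, and Zfp982 was just below its list median at percentile 49.3. In all, 11 of 13 peaks were above the median fold of their list, and the median percentile was 77.3 (a percentile of 100 is the strongest peak). The fold stood between 0.648 and 1.97 times the list median.

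**Figure D2:**
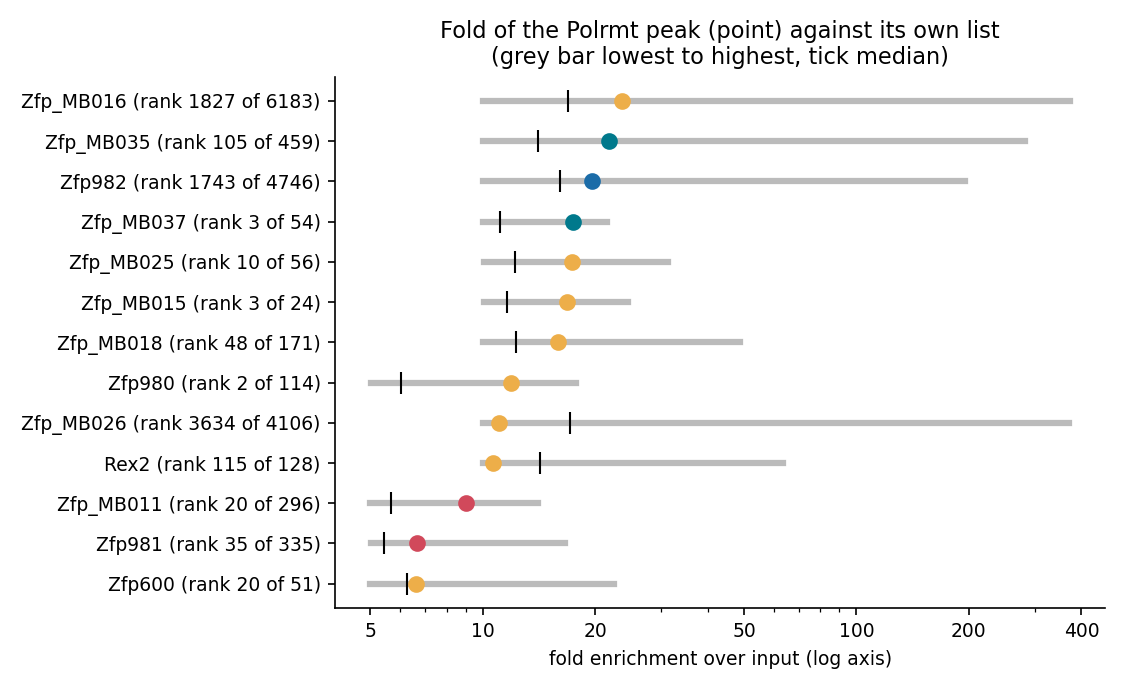
The fold enrichment of the Polrmt peak (point, colour by batch) is drawn on a log axis over the lowest to highest fold of its own list (grey bar) and the list median (tick). The point lies right of the tick for 11 lists and left of it for Zfp_MB026 and Rex2, and in no list is it at the right end.

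By batch, the peak was present in 1 of 3 lists of batch 1, 0 of 3 of batch 2, 2 of 13 of batch 3, 8 of 20 of batch 4 and 2 of 3 of batch 5. It was therefore seen against 4 different inputs. In the batches with an empty vector control of their own, 9 of 26 lists had it, and in the others 4 of 16. Peaks that overlapped one in an empty vector control had been removed from all lists, so none of the 13 overlaps a peak called in a control. What the control libraries hold at this site below the peak caller's threshold was not tested.

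Values just inside the filters came from the weakest members. The lists were cut at a fold of 10, or at 5 where too few peaks were left, and the lowest fold in each list shows which. Of the 10 lists cut at 5, 4 had the peak (Zfp600, Zfp980, Zfp981 and Zfp_MB011), and of the 32 cut at 10, 9 had it. Rex2 (10.7) and Zfp_MB026 (11.1) were closest above the cutoff of 10, and Zfp600 (6.62) and Zfp981 (6.68) closest above that of 5. At the stricter cutoff Zfp600, Zfp981 and Zfp_MB011 would have lacked the peak, which leaves 10 lists. Whether the 23 lists cut at 10 that lack it held a weaker enrichment there was not tested, since values under the cutoff are not in the lists.

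The 29 lists without the peak were those of Zfp978 and Zfp979 in batch 1 and of Zfp6001, Zfp6002 and Zfp6003 in batch 2. In batch 3 they were those of Zfp986, Zfp988, Zfp992, Zfp993, Zfp_MB003, Zfp_MB004, Zfp_MB005, Zfp_MB010, Zfp_MB012, Zfp_MB013 and Zfp_MB014. In batch 4 they were those of Gm21411, Zfp268, Zfp_MB001, Zfp_MB020, Zfp_MB021, Zfp_MB022, Zfp_MB023, Zfp_MB024, Zfp_MB027, Zfp_MB028, Zfp_MB029 and Zfp_MB031, and in batch 5 that of Zfp_MB036. They held 21 to 1424 peaks (median 114) from 22.8 to 76.9 M reads (median 42.6). The 13 lists with it held 24 to 6183 peaks (median 171) from 19.6 to 90.4 M reads (median 46.0). The groups overlapped over most of both ranges, although the 3 longest lists of all (Zfp_MB016, Zfp982 and Zfp_MB026) had the peak. Of the 16 lists under 100 peaks, 4 had it, as did 6 of 20 with 100 to 1000 peaks and 3 of 6 above that.

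**Figure D3:**
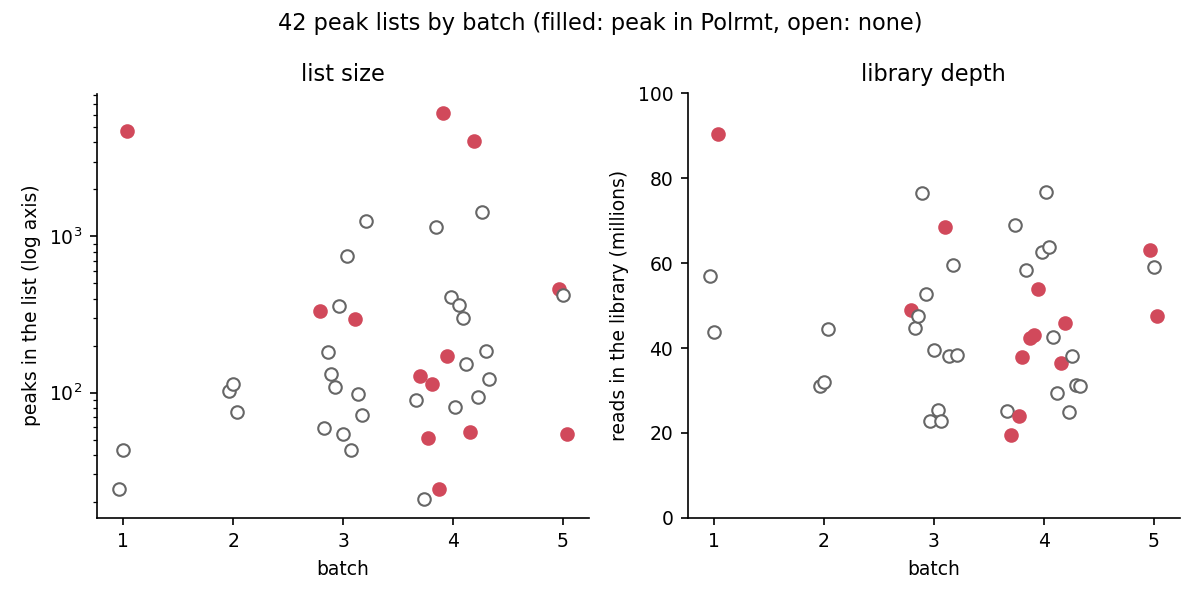
Each of the 42 lists is a point by batch, with the number of peaks on a log axis at left and the library's reads in M at right, filled where the list has the Polrmt peak. Filled and open points intermingle in batches 3 and 4 on both axes, and the 3 lists with the most peaks are filled.

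No pair of KZFPs with the same fingers had the peak in both lists, but few pairs bear on this. The fingerprint array is the set of DNA-contacting residues of all fingers in order, and the 42 KZFPs have 32 distinct arrays. The 13 with the peak have 13 different arrays, of 7 to 18 fingers. Of 21 pairs of KZFPs with the same array, 0 had the peak in both lists, 3 in 1 list and 18 in neither. Of these 18, 15 are pairs among 6 KZFPs with 1 array (Zfp992, Zfp993, Zfp_MB024, Zfp_MB027, Zfp_MB029 and Zfp_MB031), and the 3 pairs with the peak in 1 list come from 2 arrays. Zfp_MB035 (fold 21.8, batch 5) has the array of Zfp6001 and Zfp6003, both of batch 2 and both without it. Zfp_MB011 (fold 9.002, 68.5 M reads) has the array of Zfp_MB003, which lacked it in the same batch at 22.8 M reads. The KZFPs of the first case were in different batches, so batch and construct cannot be told apart there.

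The motifs derived for these KZFPs were not found at the site. Of the 13 KZFPs, 11 have a motif from their peaks (MEME), and 4 of these also have one from the finger-based tool RCADE. None of the 15 motifs occurred in the interval without mismatch on either strand. That covers Zfp982's RCADE motif GCCGCAGAC, which 0.286% of the reference promoters hold, and Zfp_MB026's RCADE motif TGGCAA, which 14% hold. Zfp_MB015's MEME motif was in 0.624% of promoters and each of the others in 0% to 0.0304%, so the absence of these longer motifs says little. The search took consensus letters only, so it says that these letters are not in the interval and no more.

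The interval was also searched for the sites of general promoter factors. The NRF1 motif GCGCATGC, known from promoters of nuclear genes for mitochondrial proteins, was there at 2 places, the nearer 190.5 bp from the median summit, and 2.71% of the 32851 reference promoters of 300 bases hold it. The ETS core CCGGAAG was found once, 600 bp away (8.86% of promoters), the E box CACGTG once, 122.5 bp away (7.15%), and the CCAAT box CCAAT at 2 places with 1 copy 90 bp away (37.4%). The GC box GGGCGG, the TATA box TATAAA, the cAMP response element TGACGTCA, the YY1 letters AAGATGGC and the ZBTB33 core CTCGCGAG had no match (35.7%, 13.6%, 1.79%, 2.75% and 0.919% of promoters). The interval is longer than a reference promoter, so these shares give a scale and not a comparison.

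Across the genome the exon 10 site was the region shared by most lists. When overlapping peaks of all lists were merged, they gave 21113 regions, of which 11.4% were in at least 2 lists, 0.0379% in at least 10 and 0.00474%, which is Polrmt alone, in 13. The site was chosen with this in view, so nothing is read from the shares.

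**Figure D4:**
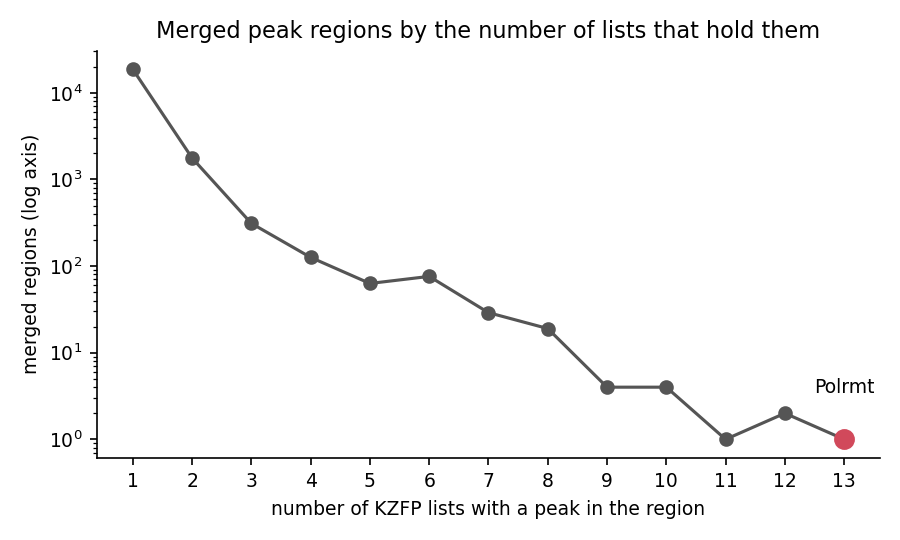
The number of merged regions (log axis) is plotted against the number of lists that have a peak in them. It falls from 18707 regions in 1 list to 1 region, Polrmt, in 13.

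Among protein-coding genes, 17% had a peak within 1000 bp of their start in at least 1 list, and the highest number of lists over a promoter was 10. Polrmt's own promoter had 0. Summits in coding exons were rarer: 3.83% of the 21757 genes had one in at least 1 list, 0.368% in at least 2, and 13 genes in at least 3. After Polrmt (13 lists) came Zfp777 (11), Spred2 (8), Zfp316 (8), Chac1 (5) and Jund (5). The 13 lists with the exon 10 peak had 2.79% to 29.1% of their summits in coding exons (median 7.67%), with Zfp_MB025 the highest, and the other 29 had 0% to 11.7% (median 0.885%). These ranges overlap, the first count the Polrmt peak itself, and this comparison was chosen after the values were seen.

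The 5 regions most like the site in their lists were taken by the Jaccard index, the lists shared over the lists in either. Zfp777, itself a zinc finger gene, was first at 0.846. Its region (chr6:48001250-48002533) lies in a coding exon and had 11 lists, all 11 among the 13 with the Polrmt peak, with summits within 67 bp. The Inpp5f region (chr7:128289096-128290464) followed at 0.643, with 9 of its 10 lists shared, then Hmgxb4 at 0.615 with 8 of 8. The region over the long noncoding RNA gene Neat1 and one at the noncoding gene Gm57020 both had 0.571, with 8 of 9 lists shared, but the summits at Neat1 were spread over 6549 bp. Inpp5f encodes an inositol polyphosphate phosphatase, and one of its mouse transcripts is imprinted.

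**Figure D5:**
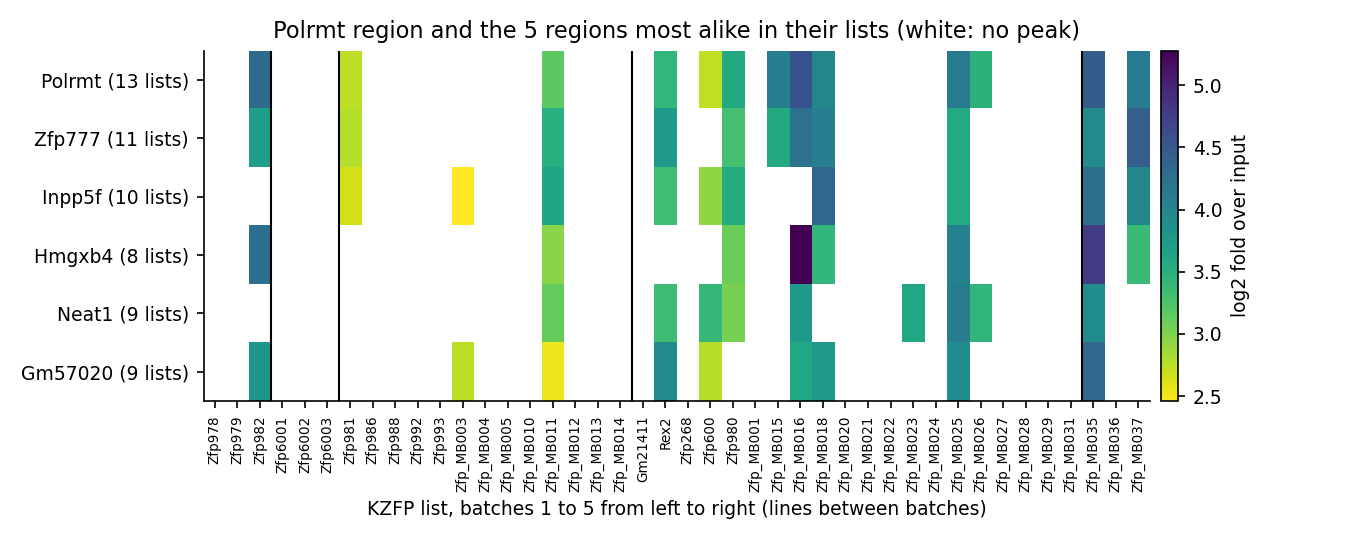
Rows are the Polrmt region and the 5 regions most alike in their lists, columns are the 42 lists in batch order, and colour is the log2 of the fold over input, white where the list has no peak. Zfp777 is filled in 11 of the 13 columns of Polrmt, missing only Zfp600 and Zfp_MB026, and batch 2 is white in every row.

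Within a list, folds share 1 input and can be set against each other. In the 11 lists with both peaks, the fold at Polrmt was 0.793 to 1.51 times that at Zfp777 (median 1.21). It was higher at Polrmt in 6 (Zfp982, Zfp_MB035, Zfp_MB025, Zfp_MB015, Zfp_MB016 and Zfp980) and higher at Zfp777 in 5 (Zfp_MB037, Zfp_MB018, Zfp981, Zfp_MB011 and Rex2). For Zfp982 the folds were 19.5 and 13.0, and for Rex2 10.7 and 13.4. For Zfp_MB037 the Zfp777 peak was the strongest of its list at 21.4, with Polrmt at rank 3 with 17.5. Neither site was higher throughout.

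The run shared by the windows of Polrmt, Zfp777 and Inpp5f is shown with 10 bases on each side, again with the run in capitals, to let the 3 sites be compared. Polrmt is chr10:79575213-79575241 on the minus strand, Zfp777 chr6:48001779-48001807 on the plus strand and Inpp5f chr7:128289712-128289740 on the minus strand, all in GRCm39.
Polrmt: tgtcttctggTTGCCGCACaacatggact
Zfp777: gatgaagctcTTGCCGCACtcagggcagg
Inpp5f: gaacgctgcgTTGCCGCACtgcgtcccta

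The run is 9 bases long, occurs once in each window and has its centre 6, 9 and 5 bp from the median summit of its region. It was picked from these windows after their peaks were seen, so its presence there is no result. In the reference promoters 0.103% hold it, and 27 of the 21113 summit windows do (0.128%), among them 4 of regions in at least 5 lists: Polrmt, Zfp777, Inpp5f and Zfp316. Of the 27, 17 were in 1 list only. A gene whose symbol starts with Zfp was overlapped by 11 of the 27 regions (40.7%) and by 233 of all 21113 (1.1%), a count made after the regions were seen. The run was picked in part from a coding exon of the zinc finger gene Zfp777, which is among the 11. The choice of run could thus favour such genes, and nothing is read from these shares. The run contains TGCCGC, known as the core of the site of ZFP57, a KZFP of imprinted regions that is not among the 42. That hexamer was in 19% of all summit windows, in 8.54% of those of regions in at least 5 lists (17 of 199) and in 11.6% of promoters. It was in 50% of those of regions in at least 10 lists (4 of 8). Polrmt, Zfp777 and Inpp5f are among those 4, and hold it because the run was picked from them. Of regions other than Polrmt in at least 5 of the lists with the Polrmt peak, 32.4% held it (11 of 34). Both of these groups include regions from which the run was picked, so nothing is read from them. Binding of ZFP57 at exon 10 was not tested.

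By promoters alone, the 5 genes most like the site were Hmgxb4 (Jaccard index 0.615, 8 lists), Gm45844 (0.533, 10 lists), Selenot (0.5, 8 lists), Ino80d (0.385, 5 lists) and Kdm3b (0.385, 5 lists). All 8 lists of Hmgxb4 and all 5 of Ino80d and of Kdm3b were among the 13. These values are likeness of presence over the 42 lists and say nothing of shared control.

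Peaks at other genes of the mitochondrial DNA machinery were counted in the same way. Of 31 further genes for mitochondrial transcription, replication and their regulators, 8 had a promoter peak in at least 1 list, beside the 17% of all protein-coding genes. None was in more than 2 lists. Of all 21757 protein-coding genes, 102 had a promoter peak in at least 3 lists, so nothing is read from this. In coding exons 0 of the 31 had a summit, beside 3.83% of all protein-coding genes, so that the count is close to the background. Tfam, which packages mitochondrial DNA and is needed to start its transcription, had promoter peaks of Zfp982 (fold 32.7, 6 bp from the gene start) and Zfp_MB016 (10.0). Nrf1, a transcription factor of nuclear genes for mitochondrial proteins, had promoter peaks of Zfp_MB035 (fold 21.8) and Zfp982 (10.1). Counted over the whole gene, Nrf1 had summits in 6 lists (Zfp982, Zfp_MB001, Zfp_MB016, Zfp_MB026, Zfp_MB028 and Zfp_MB035). All of these but Zfp_MB035 are lists with over 1000 peaks. The share of all genes with as many was not counted, so nothing is read from this number. Pprc1, a coactivator of nuclear genes for mitochondrial proteins, had a promoter peak of Zfp982 with a fold of 51.2. Its summit was 1173 bp from the gene start, so only part of the peak lay within 1000 bp. Dna2, a nuclease and helicase, had those of Zfp_MB028 (15.3) and Zfp982 (10.7). Top1mt, the mitochondrial topoisomerase, had that of Zfp_MB016 (15.3), and Slirp, which stabilises mitochondrial transcripts, that of Zfp_MB001 (18.1). Gabpb1 had that of Zfp982 (12.8, summit 1303 bp from the gene start), and Lig3, a DNA ligase, that of Zfp982 (10.2). Zfp982 thus had peaks at 6 of the 8, and it had one at 58.8% of all genes with a promoter peak in any list (2179 of 3704).

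Among the 31 genes for subunits of the nuclear RNA polymerases, 9 had a promoter peak, beside 17% of all protein-coding genes. None was in more than 2 lists, and of all 21757 genes 102 were in at least 3. The 9 were Polr1b, Polr2a, Polr2e, Polr2l, Polr2m, Polr3c, Polr3f, Polr3g and Polr3gl, with folds from 5.03 (Polr2a, Zfp_MB003) to 38.1 (Polr2l, Zfp_MB016). Coding-exon summits were found in 2 of the 31, Polr2l and Polr2m, beside 3.83% of all genes.

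The neighbours of Polrmt had few peaks and none of the exon 10 pattern. Within 50 kb of the interval there were 4 further peaks. Zfp_MB016 (fold 54.3) and Zfp_MB005 (21.5) had one near the start of Bsg, which encodes the surface protein basigin, Zfp_MB001 had one in the ion channel gene Hcn2 (16.3), and Zfp_MB013 had one near the start of Rnf126, a ubiquitin ligase gene (5.74). The first of these lists also had the exon 10 peak, the other 3 did not. No other peak of any list fell in Polrmt.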

How the data were processed

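Single ChIP-seq libraries of 42 HA-tagged KZFPs in F9 cells were analysed from the deposited peak lists. The authors aligned reads to GRCm39 with BWA, called peaks in each library with MACS2 2.2.7.1 against the mixed input of its batch, and removed peaks that overlapped one of any empty vector control. They retained peaks by q-value and by a fold of 10, or of 5 where few remained. In the deposited lists each peak has a fold enrichment (a ratio over input), −log10 p and −log10 q, a display score and a summit; the score and p were not used.

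Groups and batches came from the labels, where Zfp6001, Zfp6002 and Zfp6003 are library names of the KZFPs titled Zfp600_1, Zfp600_2 and Zfp600_3, separate from Zfp600. Read totals and motifs came from the study's supplement. Genes came from GENCODE vM39, promoter sequences from RefSeq (GRCm38.p6, 32851 entries). Chromosome accessions were translated to numbers, and 0 peaks ran past a chromosome end. The 37 peaks on scaffolds were left out of interval counts. Python 3.11.15, pysam 0.24.0, SciPy 1.17.1 and blastn 2.17.0 were used, and the overlap counts were tested on simulated data. No test was run, since each KZFP had 1 library. Genes named were Polrmt, those with a peak within 50 kb, the 5 most alike promoters (in at least 3 lists) and listed genes with a peak. The members and lists were chosen with earlier results of these data known. The most alike regions, coding-exon counts, the shared run and the ZFP57 hexamer were added after seeing the data.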

Additional observations from a re-analysis of the deposited data

How the results depend on the processing

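The number of lists with the peak was 13 when the summit had to lie in the interval, with −log10 q of at least 5, or within 1000 bp of an internal transcript start. It was 12 with summits within 50 bp of the median, 10 at a fold of at least 10, and 9 in batches with an empty vector control. It fell to 7 at a fold of at least 15 and to 0 within 1000 bp of the gene start, where the interval does not reach. The median percentile of 77.3 was 65.99 by −log10 q and 86.0 among peaks near a transcript start, less than the spread between lists away. The share of protein-coding genes with a promoter peak, 17%, was 14.7% with 250 bp either side, 15.7% with the summit within 1000 bp and 3.83% with coding exons in place of promoters. The share in at least as many lists as Polrmt was 0% for promoters, with 250 bp either side and with 1 count per array too, and 0.0046% (Polrmt itself) for coding exons. The 4 alternatives on internal starts, summits within 50 bp and coding exons were chosen after seeing the data. No paired analysis was possible because each KZFP has 1 library and no test was run.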
